A study of Mus musculus with 40 samples.

Results

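Crystallins are the bulk water-soluble proteins of the eye lens. The 10 genes described here were taken as every row of the table whose gene maps to Cryaa, Cryab, Cryba1, Cryba2, Cryba4, Crybb1, Crybb2, Crybb3, Crygs or Crygn, which are 10 of the 54307 genes in the table, and all 10 were found. They were read in 40 RNA sequencing libraries, 1 retina and 1 choroid library from each of 20 mice on day 3 after 6 laser spots had been set in each eye, a lesion that induces choroidal neovascularization. All mice carried floxed Tgfbr2 alleles on a C57BL/6J background and were given tamoxifen eye drops for 5 days at an age of 6 to 7 weeks. Tgfbr2ΔEC mice (CrePos in the labels) also carried Cdh5-CreERT2, which drives recombination in vascular endothelial cells only, and controls (CreNeg) did not. In each genotype, 5 mice received the PLX5622 diet, which depletes mononuclear phagocytes (+ PLX), and 5 did not (– PLX), so that mice 1 to 5 were control – PLX, mice 6 to 10 Tgfbr2ΔEC – PLX, mice 11 to 15 control + PLX and mice 16 to 20 Tgfbr2ΔEC + PLX. For the choroid, the central part with the lesions had been taken. Both sexes were used, and every animal had been lasered, so no unlasered eye is among the groups.

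The α-crystallins are small heat shock proteins that hold unfolding proteins in solution. Cryaa is largely a lens gene, whereas Cryab is also made in heart, skeletal muscle, glia and retinal pigment epithelium. The β- and γ-crystallins are structural proteins of the lens fibre cells, and several of them have also been seen in the retina after injury, where they are discussed as part of a stress response. Lens RNA carried over in dissection is another known source of these transcripts in retinal samples.

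In these data the members fell into 3 behaviours. Cryaa, Cryba1, Cryba2, Cryba4, Crybb1, Crybb2, Crybb3 and Crygs rose and fell together from mouse to mouse in both tissues, and for Cryaa the span in the retina was 903-fold. Cryab followed these genes in the retina, on top of a level that was never below 523 normalized counts, and was steady and 8.2 times higher in the choroid. Crygn was at or near the counting limit in the retina, was present in the choroid, and none of its pairs with the others passed. No member passed the test for genotype or diet in either tissue.

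Positions are given on GRCm39. Cryaa (ENSMUSG00000024041) lies on the + strand of chromosome 17, from 31896781 to 31900707, with 3 exons in its canonical transcript. Cryab (ENSMUSG00000032060) lies on the + strand of chromosome 9, from 50651859 to 50668567, and overlaps Hspb2, another small heat shock protein gene, on the other strand. Cryba1 (ENSMUSG00000000724), on chromosome 11 from 77609441 to 77616120, encodes the βA3 and βA1 proteins from 1 gene. Cryba2 (ENSMUSG00000006546) is on chromosome 1 from 74929093 to 74932302. Cryba4 (ENSMUSG00000066975, chromosome 5, 112394359 to 112402226) and Crybb1 (ENSMUSG00000029343, chromosome 5, 112400811 to 112417965) are read from opposite strands, overlap, and have starts 1415 bases apart. Crybb2 (ENSMUSG00000042240, 113206124 to 113217983) and Crybb3 (ENSMUSG00000029352, 113223705 to 113229450) are neighbours on the same chromosome with a gap of 5722 bases. Crygs (ENSMUSG00000033501), a γ-crystallin that is made throughout adult life, is on chromosome 16 from 22623953 to 22630327. Crygn (ENSMUSG00000038135, chromosome 5, 24956001 to 24963006) is related in sequence to both the β- and the γ-crystallins.

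Reads of the same strand could be shared between members to a small extent only. Of all 31-base words of the members' annotated transcripts, 15 were shared by Cryba1 and Crybb1, and none by any other pair of members or by a member and the clustered γ-crystallins Cryga to Crygf. Within that γ-crystallin cluster the sharing was larger, with 298 of 1201 words of Crygd and 454 of 813 of Cryge found in another crystallin gene, so that counts of those genes are uncertain where they are named below. The overlaps of Cryab with Hspb2 and of Cryba4 with Crybb1 can be told apart only by strand. These words were compared on the transcripts' own strand and do not cover such overlaps, and whether strand was used in counting is not given.

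The members that moved together have different promoters. The 4 windows shown set co-varying genes beside Crygn, whose pairs with them did not pass. Each window runs from 250 bases before to 50 bases after the start of transcription in RefSeq, 5′ to 3′ on the gene's own strand, and lies on GRCm38.p6 at chr17:31677681-31677980 (Cryaa), chr5:112255570-112255869 (Crybb1), chr5:113070068-113070367 (Crybb2) and chr5:24757799-24758098 (Crygn). Capitals mark TGCTGA, the core letters of the element that Maf factors recognise, on either strand (read as TCAGCA on the other), and the TATA box letters TATAAA.
Cryaa: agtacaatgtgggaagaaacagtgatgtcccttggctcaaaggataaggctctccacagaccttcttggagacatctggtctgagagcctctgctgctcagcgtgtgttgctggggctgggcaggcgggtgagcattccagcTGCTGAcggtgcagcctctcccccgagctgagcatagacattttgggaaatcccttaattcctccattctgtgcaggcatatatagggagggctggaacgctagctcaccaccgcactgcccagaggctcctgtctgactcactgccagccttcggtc
Crybb1: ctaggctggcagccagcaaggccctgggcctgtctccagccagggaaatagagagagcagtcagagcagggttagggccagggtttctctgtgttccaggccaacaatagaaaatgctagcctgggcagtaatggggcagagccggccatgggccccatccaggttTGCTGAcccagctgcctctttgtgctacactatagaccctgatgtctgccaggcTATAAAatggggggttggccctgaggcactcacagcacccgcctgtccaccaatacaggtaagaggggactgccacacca
Crybb2: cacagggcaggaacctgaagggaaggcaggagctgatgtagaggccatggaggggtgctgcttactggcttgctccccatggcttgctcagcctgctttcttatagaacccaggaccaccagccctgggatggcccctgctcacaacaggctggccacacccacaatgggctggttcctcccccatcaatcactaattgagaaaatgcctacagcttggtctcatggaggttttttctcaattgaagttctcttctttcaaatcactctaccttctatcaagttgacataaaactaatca
Crygn: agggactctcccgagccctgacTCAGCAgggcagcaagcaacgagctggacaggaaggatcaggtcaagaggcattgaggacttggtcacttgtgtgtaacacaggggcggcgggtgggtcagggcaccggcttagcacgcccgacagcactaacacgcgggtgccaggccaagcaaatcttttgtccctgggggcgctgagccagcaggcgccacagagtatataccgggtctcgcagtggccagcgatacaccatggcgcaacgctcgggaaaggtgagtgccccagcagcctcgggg

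A promoter window was found for 9 of the 10 members, all but Cryab. TGCTGA on either strand was present in 8 of these 9 windows, against 19.5% of the 32851 RefSeq mouse windows of the same length. The letters lay at position -108 to -103 in Cryaa and at -84 to -79 in Crybb1. Crybb2, which followed Cryaa in both tissues, had no match, while Crygn, whose pair with Cryaa did not pass, had one at -228 to -223. TATAAA was present in 4 of 9 windows (Cryba1, Cryba2, Crybb1 and Crygs), against 13.6% of all windows. The core of the heat shock element, GAANNTTC, which reads the same on both strands, was found in 0 of 9 windows and in 7.86% of all. These are matches of letters and do not show binding.

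Values are the submitters' normalized counts, that is, estimated reads per gene divided by a size factor for each library, and 1 read was worth 0.745 to 1.125 of them in retina and 0.905 to 1.19 in choroid. The libraries summed to between 22256892 and 25956180 normalized counts. A count of 3 reads, the smallest taken here as detection, corresponded to 2.235 to 3.57 and covers counting error only. Tgfbr2 itself, the targeted gene, was 10503 ± 425 (SD, n = 5) in control – PLX choroid and 10176 ± 1077 in Tgfbr2ΔEC – PLX choroid, and the groups overlapped. The gene total covers all exons and all cells of the tissue, so it does not check the endothelial deletion. Of the neural retina list, 10 of 10 genes were called higher in retina (limma, median difference 5.85 on the log2 scale), and the choroid libraries held retinal pigment epithelium RNA (Rpe65, 14927 or more) and skeletal muscle RNA (Acta1, 4121 to 42865). The retina library of mouse 1 stood apart in corneal keratins, with Krt12 at 219 against 17.3 or less in the others, and the choroid library of mouse 4, the lowest choroid for 3 members, held the most Krt5, at 4561. The part of either in the crystallin levels was not tested.

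Cryaa, the αA-crystallin, varied more between mice than almost any gene of the retina. In the retina of control – PLX mice 1 to 5 it was 381, 107, 1920.3, 7.47 and 6457 normalized counts. In Tgfbr2ΔEC – PLX mice 6 to 10 the values were 910.1, 325, 1078, 42.6 and 35.4. Control + PLX mice 11 to 15 had 1425, 20.2, 6745, 356 and 84.2. Tgfbr2ΔEC + PLX mice 16 to 20 had 2166, 1098, 359, 12.1 and 14.1. High and low mice occurred in every group, and the 4 groups overlapped. Mice 13 and 5 were the highest and mouse 4 the lowest, 903-fold apart. Its standard deviation within groups was 3.24 on the log2 scale, beyond that of 99.8% of the 23243 genes tested, where the median gene had 0.42.

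In the choroid the same gene spanned less. Cryaa was 256, 548, 1176, 26.6 and 1389 in control – PLX mice, and 1251, 164, 236, 106 and 339.6 in Tgfbr2ΔEC – PLX mice. It was 621, 528, 808, 523 and 277 in control + PLX mice, and 1599.9, 357, 938, 61.9 and 26.2 in Tgfbr2ΔEC + PLX mice. Mouse 16 was highest and mouse 20 lowest, 61.1-fold apart, and the groups again overlapped. The within-group SD of 1.85 (log2) lay beyond 98.4% of the 23619 genes tested in choroid, against a median of 0.40.

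**Figure D1:**
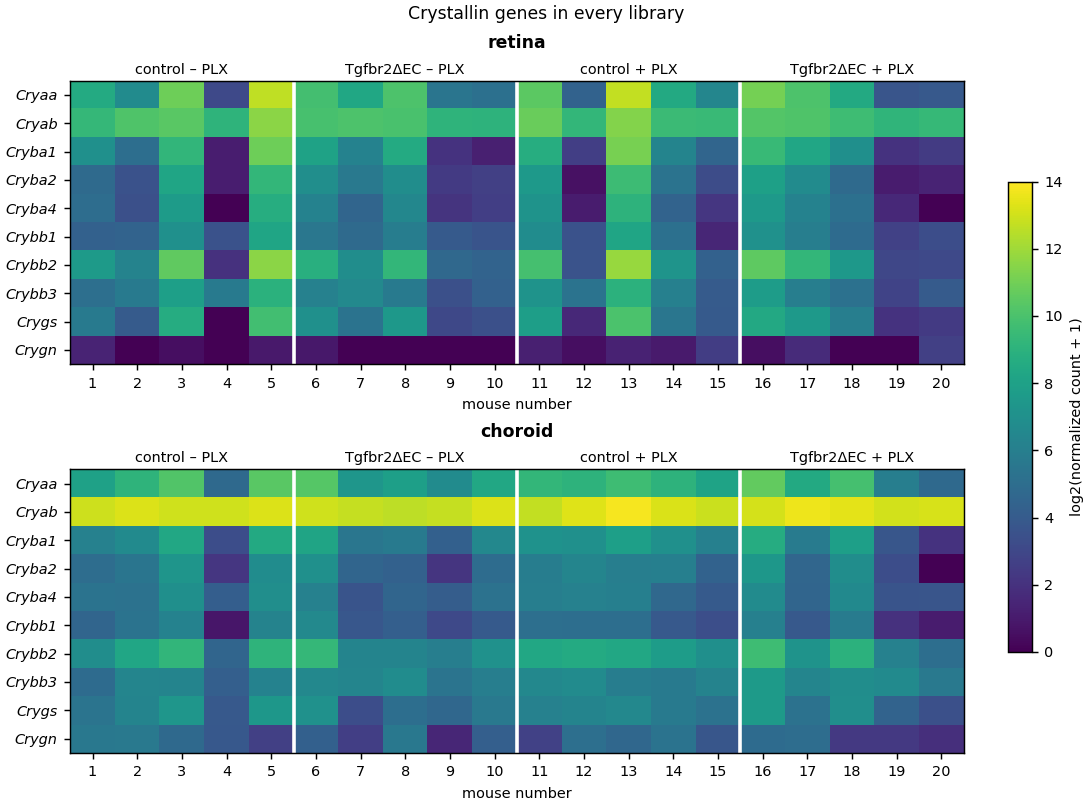
Normalized counts of the 10 crystallin genes in 20 retina (top) and 20 choroid (bottom) libraries, as log2(normalized count + 1) in colour, with mouse number on the x axis and white lines between the 4 groups. In the retina, mice 4, 12, 19 and 20 are dark and mice 5 and 13 bright in most rows, whereas Cryab in the choroid is bright in every mouse.

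The β-crystallins Cryba1, Cryba2, Cryba4, Crybb1 and Crybb2 and the γ-crystallin Crygs spread in the same way. Crybb2 ran in the retina from 2.92 in mouse 4 over a median of 161 to 3628 in mouse 13, and in the choroid from 22.9 in mouse 4 over 179 to 800.4 in mouse 16. Cryba1 ran from 1.16 over 102 to 2258 in retina and from 3.14 over 96.1 to 409 in choroid. Mouse 13 was the highest retina for Cryaa, Cryba1, Cryba2, Cryba4, Crybb2, Crybb3 and Crygs, and mouse 5 for Crybb1 and Cryab. The lowest retina was that of mouse 4 for Cryaa, Cryba1, Cryba4, Crybb2 and Crygs. Crygs went from 0 in mouse 4 to 1035 in mouse 13, at least 307-fold above the limit of 3 reads, and Cryba4 from 0 in mice 4 and 20 to 523, at least 155-fold above it. In the choroid Cryba4 stayed between 11.3 and 126 and Crygs between 8.83 and 195. Crybb1, the lowest expressed of these genes per kilobase, ran from 1.81 to 296 in retina and from 0.821 to 96.6 in choroid. Crybb3 spread least, from 6.13 to 509 in retina and from 18.1 to 194 in choroid, where its within-group SD of 0.70 (log2) was beyond that of 65% of genes.

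Between genes, levels were compared per kilobase of the canonical transcript. By the retinal median, Cryab was highest with 525 normalized counts per kilobase, followed by Cryaa with 285, Crybb2 with 220.1, Cryba1 with 129, Crybb3 with 65.2, Crygs with 55.8, Cryba2 with 46.2, Cryba4 with 33, Crybb1 with 20.3 and Crygn with 0.566. In the choroid the median of Cryab was 5128 per kilobase, that of Cryaa 351, of Crybb2 245 and of Cryba1 122, and the other 6 lay between 14.6 and 96.9. Neighbours in these orders differed by less than the SD between mice, except Cryab and Cryaa in the choroid and, on the log2 scale, Crybb1 and Crygn in the retina.

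Summed, the 8 co-varying genes, a set named after their values were seen, took 0.000167 to 0.0674% of the normalized counts of a retina and 0.000442 to 0.0142% of those of a choroid. Within a mouse the proportions of these genes to Cryaa were steadier than their levels, except that of Crybb3 in the choroid. In the 13 retinas with at least 100 normalized counts of Cryaa, Cryba1 was 0.302 of Cryaa at the median and stayed between 0.218 and 0.351, although Cryaa itself had an SD of 1.74 (log2) over the same mice. The ratio of the 2 genes had an SD of 0.21 (log2). In the 17 choroids with that much Cryaa, Cryba1 was 0.251 of Cryaa, from 0.153 to 0.294. The proportion to Cryaa in retina and choroid was 0.538 and 0.481 for Crybb2, 0.153 and 0.126 for Crygs, 0.109 and 0.0963 for Cryba2, 0.0807 and 0.086 for Cryba4 and 0.0628 and 0.0588 for Crybb1. Crybb3 was 0.0984 of Cryaa in retina and 0.148 in choroid, with a wider SD of the ratio, 0.95 and 0.98 (log2), against 1.31 and 0.61 for its level, so that in the choroid its proportion varied more than its level.

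Whether the members moved together was tested over 20 mice with the mean of each group removed, for all 45 pairs of a tissue, by permutation of mice within groups. In the retina 36 of 45 pairs passed at an adjusted p of 0.05 for both Pearson's r and Spearman's rho, all positive, and the 9 that did not were the pairs with Crygn. Cryaa and Crybb2 had r = 0.99 and rho = 0.99 (permutation p = 1e-05 for both, the smallest that 100000 permutations can give, adjusted p = 2e-05 for r), and r = 0.99 without the 2 mice farthest from the median. Cryaa and Cryba1 had r = 0.99 and rho = 0.98 at the same smallest p, and 0.99 without 2 mice. Among the 28 pairs without Cryab and Crygn, r ran from 0.83 to 0.99 with a median of 0.97, and the lowest r without 2 mice was 0.79. The points of each pair share a library, its depth and its tissue piece. As each mouse was left out in turn, 36 pairs passed every time.

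In the choroid 28 of 45 pairs passed both tests, again all positive, and the 17 that did not were the pairs with Cryab or Crygn. Cryaa and Cryba1 had r = 0.99 and rho = 0.98 (permutation p = 1e-05 for both, adjusted p = 2.6e-05 for r), and 0.99 without 2 mice. For the 28 pairs r ran from 0.62 to 0.99 with a median of 0.93, the highest adjusted p was 0.0202, and the lowest r without 2 mice was 0.51. Pairs with Crybb3 were the loosest, from 0.62 to 0.78. With group means left in, 22 of 45 passed.

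**Figure D2:**
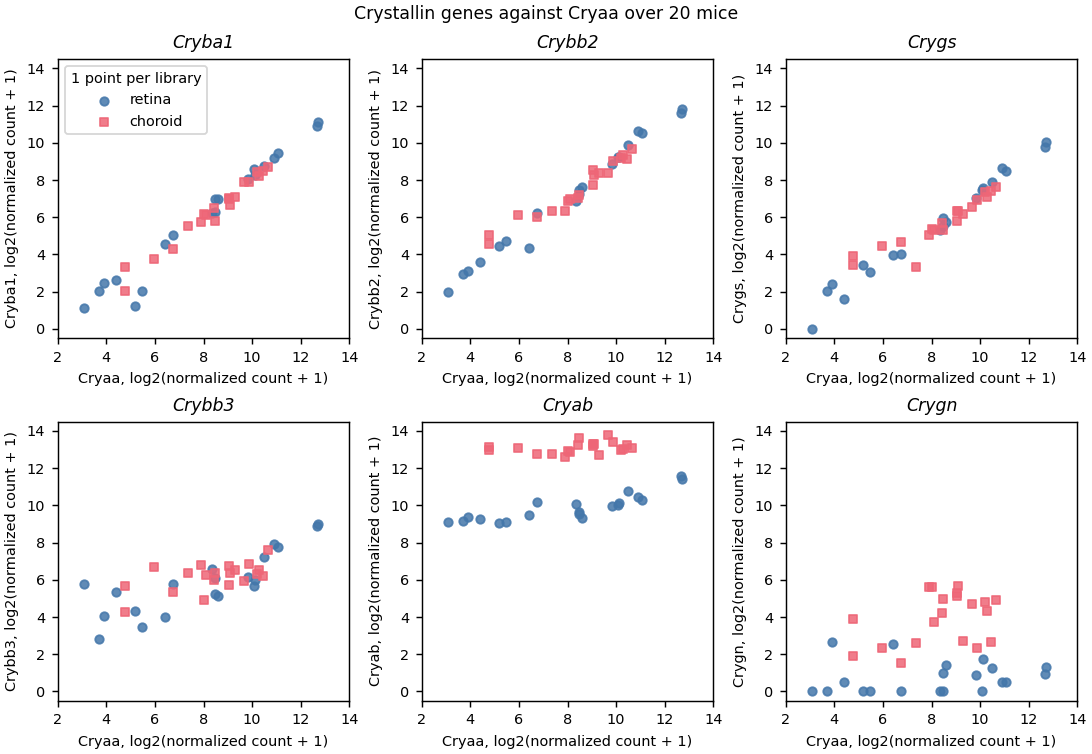
Log2(normalized count + 1) of 6 crystallin genes (y axis) against that of Cryaa (x axis), 1 point per library, circles for retina and squares for choroid. Cryba1, Crybb2 and Crygs lie on 1 rising band in both tissues, Crybb3 more loosely. Cryab rises with Cryaa in the retina only and is flat near 13 in the choroid. Crygn is near 0 in most retinas, and in the choroid its relation to Cryaa (r = 0.35) did not pass.

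The mice with much crystallin RNA in the retina were, for most members, also those with much in the choroid. Of 10 members, 7 passed both tests over the 20 mice after group means were removed. The relation was closest for Cryaa, with r = 0.77 (permutation p = 0.00032, adjusted p = 0.0032) and rho = 0.75 (p = 0.00114, adjusted p = 0.0085), and r = 0.76 without 2 mice. Cryba1 had r = 0.73, Crybb2 0.70, Cryba4 0.67, Crybb1 0.65, Crygs 0.65 and Cryba2 0.65, with adjusted permutation p for r of at most 0.0066. Crybb3, with r = 0.46 (permutation p = 0.0606, adjusted p = 0.0757), did not pass. Mouse 4 was low in both tissues and mouse 5 high in both, while mouse 13, the highest retina, came only after mice 16, 5, 6, 3 and 18 in the choroid for Cryaa. Cryab had r = 0.27 (permutation p = 0.346, adjusted p = 0.384) and Crygn r = -0.055 (p = 0.839, adjusted p = 0.839). Without mouse 4 the number of members past both tests was 5.

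**Figure D3:**
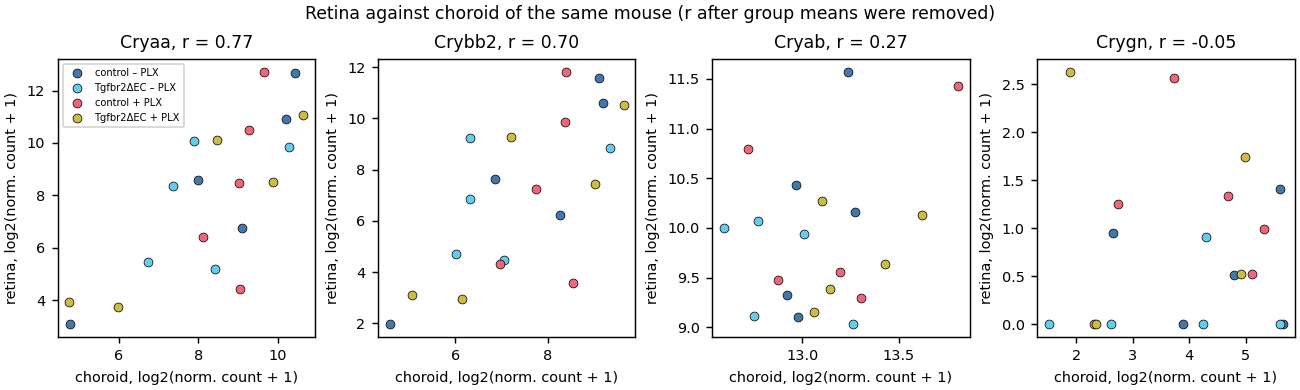
Log2(normalized count + 1) in the retina (y axis) against the choroid (x axis) of the same mouse for Cryaa, Crybb2, Cryab and Crygn, 1 point per mouse coloured by group. Cryaa and Crybb2 rise together in both tissues (r = 0.77 and 0.70), Cryab (0.27) and Crygn (-0.05) show no such slope.

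Cryab, the αB-crystallin, was present in every retina and rose with the other members there. Its retinal values were 641, 1142, 1381, 549 and 3045 in control – PLX mice, and 982, 1076, 1025, 552 and 523 in Tgfbr2ΔEC – PLX mice. They were 1769.6, 627, 2754, 754 and 710.35 in control + PLX mice, and 1237, 1120.1, 793, 570.3 and 667 in Tgfbr2ΔEC + PLX mice. Mice 5 and 13, the highest for Cryaa, were also the highest for Cryab, and all groups overlapped. All 8 pairs of Cryab with the co-varying members passed both tests in the retina, with r from 0.87 to 0.89. For Cryaa and Cryab r was 0.87 (permutation p = 4e-05, adjusted p = 6.4e-05) and rho 0.86 (p = 3e-05), and r was 0.83 without 2 mice. A straight line of Cryab on Cryaa over the 20 retinas had an intercept of 697 ± 57.1 normalized counts and a slope of 0.339 ± 0.0254 (± SE), a fit in which mice 5 and 13 carry the most weight. The 4 retinas with the least Cryaa, those of mice 4, 19, 20 and 12, still held 549 to 667 of Cryab.

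In the choroid Cryab was the dominant crystallin. The values were 7769, 9911, 8023, 8065.5 and 9654 in control – PLX mice, and 8237, 6983, 6185, 6889 and 9838.5 in Tgfbr2ΔEC – PLX mice. Control + PLX mice had 6731, 10136, 14342, 9375 and 7518, and Tgfbr2ΔEC + PLX mice 8781, 12616, 11021, 8552.5 and 9042. Every choroid was above every retina. Its within-group SD of 0.29 (log2) was below the median gene's 0.40. It made up a median of 90.1% of the summed counts of the 10 members in choroid and 48.6% in retina, where its share ran from 14.9 to 93.4%. None of its 8 pairs with the co-varying members passed in the choroid, and for Cryaa and Cryab r was 0.33 (permutation p = 0.0949, adjusted p = 0.147) and rho 0.47 (p = 0.039, adjusted p = 0.0605).

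Retina and choroid were compared over all 40 libraries with limma, in which 41.1% of the 24317 genes tested were called higher in retina and 40.8% higher in choroid. Of the 10 members, 2 were called, both higher in choroid, and 0 were called higher in retina. Cryab differed by -3.21 ± 0.17 (log2, retina minus choroid, ± SE, adjusted p = 2.39e-19, limma), was higher in choroid in 20 of 20 mice, and had a mean of 1096 ± 699 in retina and 8983 ± 2014 in choroid (SD, n = 20), 8.2-fold apart. Crygn differed by -3.18 ± 0.35 (adjusted p = 1.28e-10, limma), a size that depends on the pseudocount since 18 of 20 retinas were at or under 3 reads, and was higher in choroid in 19 of 20 mice. The other 8 members did not pass. For Cryaa the difference was -0.37 with a 95% interval from -1.96 to 1.22, 11 mice were higher in choroid and 9 in retina. By means the direction was the opposite, with 1177 ± 1968 in retina and 562 ± 480.35 in choroid (SD, n = 20), and the means of all 8 members that did not pass were higher in retina. Crybb1, at 0.73 (adjusted p = 0.226) and higher in retina in 13 mice, was called when the mouse number was entered as a replicate block (adjusted p = 0.0442), which brought the members called to 3.

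Most of the cell type lists differed between the tissues, in both directions. All 8 mononuclear phagocyte genes and 5 of 6 endothelium genes were called higher in choroid, as were 40.8% of all genes tested. All 10 neural retina genes and 5 of 6 Müller glia genes were called higher in retina, and 1 Müller glia gene in choroid. All 10 listed skeletal muscle genes, all 7 of the retinal pigment epithelium, all 5 of melanocytes and all 6 of Schwann cells were called higher in choroid, the muscle genes with a median difference of -10.60 (log2). Acta1, the actin of skeletal muscle fibres, had a median of 25.1 in retina and 21424 in choroid. Within the choroid, Cryab and the muscle score had r = 0.39 (permutation p = 0.156, adjusted p = 0.521) and rho = 0.36. With the retinal pigment epithelium score r was -0.62 (permutation p = 0.0122, adjusted p = 0.213), and with the small heat shock protein score 0.63 (permutation p = 0.0112, adjusted p = 0.213). Hspb2, which overlaps Cryab, had a median of 4.98 in retina and 186 in choroid. Of the 6 small heat shock protein genes besides the α-crystallins that could be tested, 5 were called higher in choroid, Hspb2 among them, and 0 in retina. The part of these cells in the level of Cryab was not tested, and in bulk tissue fewer cells of a type and less RNA per cell cannot be told apart.

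Crygn was the member nearest to the counting limit in the retina. In the retina it was at or under the limit of 3 reads in 18 of 20 libraries and at 0 in 8, and the 2 libraries above it, mice 15 and 20, had 4.91 and 5.2. The choroids of control – PLX mice had 47.8, 49.5, 26.7, 13.7 and 5.29, and those of Tgfbr2ΔEC – PLX mice 18.7, 5.11, 47.6, 1.86 and 17.8. Control + PLX mice had 5.63, 33.6, 24.8, 38.8 and 12.3, and Tgfbr2ΔEC + PLX mice 29.1, 30.7, 3.97, 4.05 and 2.71. High and low choroids were found in each group, and the order differed from that of Cryaa, as in mouse 5, which was high for Cryaa and low for Crygn. None of its 9 pairs passed in either tissue, with r from -0.07 to 0.16 in retina and from 0.20 to 0.39 in choroid. In the retina most values lay at the counting limit, so these pairs cannot show whether Crygn moves with the others. In the choroid every r was positive, and a weak relation is not excluded with 20 mice.

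The members were then set against scores of 14 gene lists, each the mean log2 value of the listed genes, in 140 relations per tissue. In the retina 27 of 140 passed both tests. The lens score, of 10 lens genes that are not crystallins, correlated with 9 of 10 members, all but Crygn. The r was 0.92 for Cryaa (permutation p = 1e-05, adjusted p = 0.000175; rho = 0.94, and 0.92 without 2 mice), 0.92 for Crybb2 and 0.84 for Cryab. These 9 relations passed with each of the 20 mice left out in turn.

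The score of retinal stress and gliosis, of 10 genes that rise in injured retina, correlated with 8 of 10 members. For Cryaa r was 0.81 (permutation p = 5e-05, adjusted p = 0.000583), rho 0.80, and r without 2 mice 0.73. For Cryab r was 0.80 (permutation p = 0.00023, adjusted p = 0.00201) and rho 0.72, and Crybb3, with rho = 0.56 (permutation test, adjusted p = 0.0707), did not pass. The heat shock response score correlated with 7 members, with r from 0.56 to 0.65, and with 0 once mouse 4, 10 or 12 was left out. The total of 27 relations was 16 without mouse 4, 17 without mouse 10 and 17 without mouse 12. The remaining 3 relations were those of Cryab with the endothelium score (r = 0.60) and of Cryab and Crybb3 with the melanocyte score (r = -0.62 and -0.60). As each mouse was left out in turn, the members related to the endothelium score ran from 0, with 16 of the mice, to 8, and those related to the melanocyte score from 0, with 9 of the mice, to 2. No member passed with the scores of neural retina, Müller glia, retinal pigment epithelium, skeletal muscle, cornea, mononuclear phagocytes, Schwann cells, lens transcription factors or other small heat shock proteins.

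The lens and stress scores were themselves related in the retina, with r = 0.63 (permutation p = 0.0029, adjusted p = 0.00568 over 3 relations), rho = 0.66 and r = 0.48 without 2 mice, so their relations to the members are not separate from each other. Their levels overlapped between groups. The lens score of the retina was 1.96 to 5.33 (log2) in control – PLX, 1.18 to 3.10 in Tgfbr2ΔEC – PLX, 1.38 to 4.75 in control + PLX and 1.19 to 4.67 in Tgfbr2ΔEC + PLX. The stress score was 8.52 to 10.28, 8.30 to 9.66, 8.78 to 10.26 and 8.84 to 9.56 in the same order. Of the 12 listed lens genes, 10 entered the retinal score, and Mip, the main membrane protein of lens fibres, ran from 0 in 7 retinas to 52.5 in mouse 5. The part of lens cells in the crystallin RNA of the retina was not tested.

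Single genes of these lists were compared with Cryaa and Cryab in the retina, a step chosen after the scores had been seen, in a family of 62 relations. Of 10 lens genes, 9 passed both tests with Cryaa and 7 with Cryab. The closest to Cryaa was Bfsp1, a filament protein of lens fibres, with r = 0.93 and rho = 0.93 (permutation test, adjusted p = 0.000207 for r), which ran from 3.47 to 205 over the 20 retinas. Mip had r = 0.88 with Cryaa and Lgsn, a lens protein of the glutamine synthetase family, 0.87. Of the 10 stress genes, 8 passed with Cryaa and 7 with Cryab. The closest was Cebpd, a transcription factor of the acute response, with r = 0.84 to Cryaa and 0.89 to Cryab. Edn2, an endothelin that photoreceptors release after damage, had 0.78 and 0.76, and Gfap, the intermediate filament of reactive glia, 0.58 and 0.66. Of the 11 heat shock genes, 2 passed with Cryaa (Bag3, a co-chaperone, at 0.80, and Hmox1, the inducible haem oxygenase, at 0.64) and 3 with Cryab (these and Dnajb1).

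**Figure D4:**
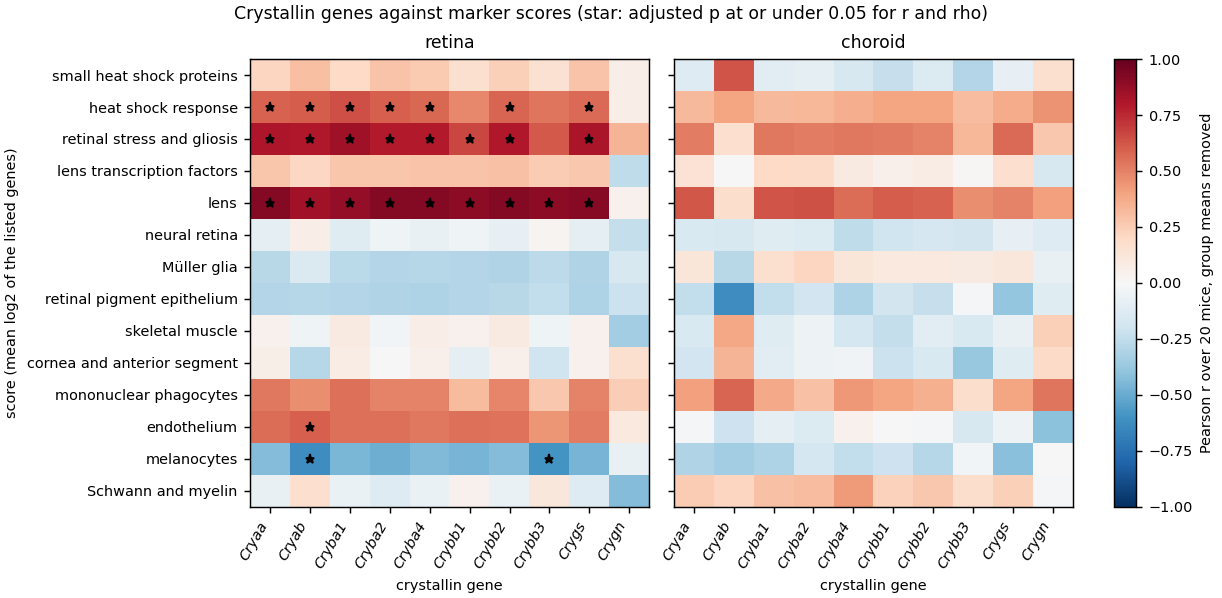
Pearson's r over 20 mice, with group means removed, between each crystallin gene (x axis) and each of 14 scores (y axis), in retina (left) and choroid (right); red is positive, blue negative, and a star marks an adjusted p at or under 0.05 for both r and rho. Stars fill most of the rows for lens, retinal stress and gliosis and heat shock response in the retina, with 27 in all, and the choroid has 0.

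In the choroid 0 of 140 relations with the scores passed by the permutation test, and 19 had an unadjusted p at or under 0.05 for r and 18 for rho. The lens score had r = 0.62 with Cryaa (permutation p = 0.0178, adjusted p = 0.213), and 0.18 with Cryab (permutation p = 0.444, adjusted p = 0.773). Several listed lens genes were at a steady level there and did not pass with Cryaa, as Bfsp1 with 82.1 to 194 and Bfsp2 with 111 to 250.2, whereas Mip was 0 to 14.3. Of 11 lens genes tested singly in the choroid, 1 passed with Cryaa, which was Lgsn (r = 0.85, rho = 0.82, permutation test, adjusted p = 0.00512 for r), and 0 with Cryab.

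The genes nearest in pattern were sought among all protein-coding genes with a mean of at least 10, by the mean Spearman rho over 20 mice to the members that themselves have such a mean, as a description without a test. In the retina, among 14570 genes, the 6 nearest were Crygc (0.89), Crygb (0.89), Bfsp1 (0.89), Crygd (0.89), Lgsn (0.86) and Bfsp2 (0.86), of which Crygc, Crygb and Crygd are γ-crystallins of the lens fibre. The next were Agtpbp1 (0.84), Cebpd (0.84), Cfap119 (0.82) and Gadd45b (0.81). In the choroid, among 15271 genes, Crygc (0.77), Crygb (0.73), Crygd (0.73) and Lgsn (0.71) led, followed by Smg8 (0.68), Gadd45g (0.68), Smndc1 (0.64), Mrpl32 (0.64), Mlf2 (0.64) and Fcf1 (0.63). Nearest to Cryaa alone were the same 4 leading genes in the choroid, and in the retina Crygb, Crygc, Bfsp1, Crygd and Lgsn. For Cryab alone the retinal neighbours were Gadd45b (0.92) and Cebpd (0.91), both induced by injury and cytokines, then Pmvk, Bfsp2 and Dbi (0.88 each). In the choroid they were Insyn1 (0.80), Anapc7 (0.78), Tbl3 (0.78), Erfe (0.77) and Pdlim1 (0.77), none of them a crystallin.

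Genotype and diet were compared within each tissue in 1 limma fit of the 4 groups. The comparison of Tgfbr2ΔEC with control asks whether loss of endothelial TGFβ signalling went with other crystallin levels, and that of + PLX with – PLX asks the same of the loss of mononuclear phagocytes. For Tgfbr2ΔEC against control, 0 of 10 members were called in choroid, where 0.00423% of 23619 genes were called without PLX and 0.00423% with PLX. Each share rests on 1 called gene, and without PLX the number called was 411 without mouse 15 and 303 when only the 10 libraries compared were fitted, with 0 members among them. In the retina 0 of 10 were called, against 0% of 23243 genes in both diets. No member had an unadjusted limma p under 0.05 in these 4 comparisons, while 2184 and 889 genes had one in choroid and 758 and 629 in retina. The members' median difference, Tgfbr2ΔEC minus control, was -0.57 (log2) in choroid and -0.60 in retina without PLX, and -0.65 and -0.69 with PLX, against medians of all genes between -0.01 and 0.01. In the retina 10 of 10 members were lower in Tgfbr2ΔEC in both diets, on the log2 scale and by group means. The median difference of the lens list in the retina was -1.05 (log2) without PLX and 0.21 with PLX, and that of the cornea list -1.34 and 0.22. That of the stress and gliosis list was -0.45 and -0.26, and that of the retinal pigment epithelium list 0.50 and 0.65. No gene of these lists was called, and their part in the members' values was not tested. In the choroid without PLX 9 were lower on both scales. In the choroid with PLX the direction turned with the scale, with 8 members lower on the log2 scale and 9 higher by group means, as for Cryaa with 597 in Tgfbr2ΔEC and 552 in control. Since 8 of the members move together from mouse to mouse, they do not count as 10 separate observations.

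For + PLX against – PLX, 0 of 10 members were called in choroid, where 3.75% of genes were called in controls and 4.06% in Tgfbr2ΔEC mice, and 0 of 10 in retina, where 0.736% and 0.516% were called. A count of 0 among 10 genes is near these shares and says nothing particular about the members. Of 8 mononuclear phagocyte genes, Cx3cr1, Csf1r, C1qa, C1qb, C1qc and P2ry12 were called lower with PLX in both tissues and genotypes, Aif1 in all but control retina, and Tmem119 in the retina of both genotypes. The member nearest to a call was Cryab in the choroid of Tgfbr2ΔEC mice, 0.39 ± 0.17 higher with PLX (log2, ± SE, 95% interval 0.04 to 0.75, limma adjusted p = 0.25). It was the only member with an unadjusted p under 0.05 in any of the 10 comparisons within a tissue. For the interaction of genotype and diet, 0 of 10 members and 0% of genes were called in either tissue, and 1552 genes in choroid and 567 in retina had an unadjusted limma p under 0.05.

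**Figure D5:**
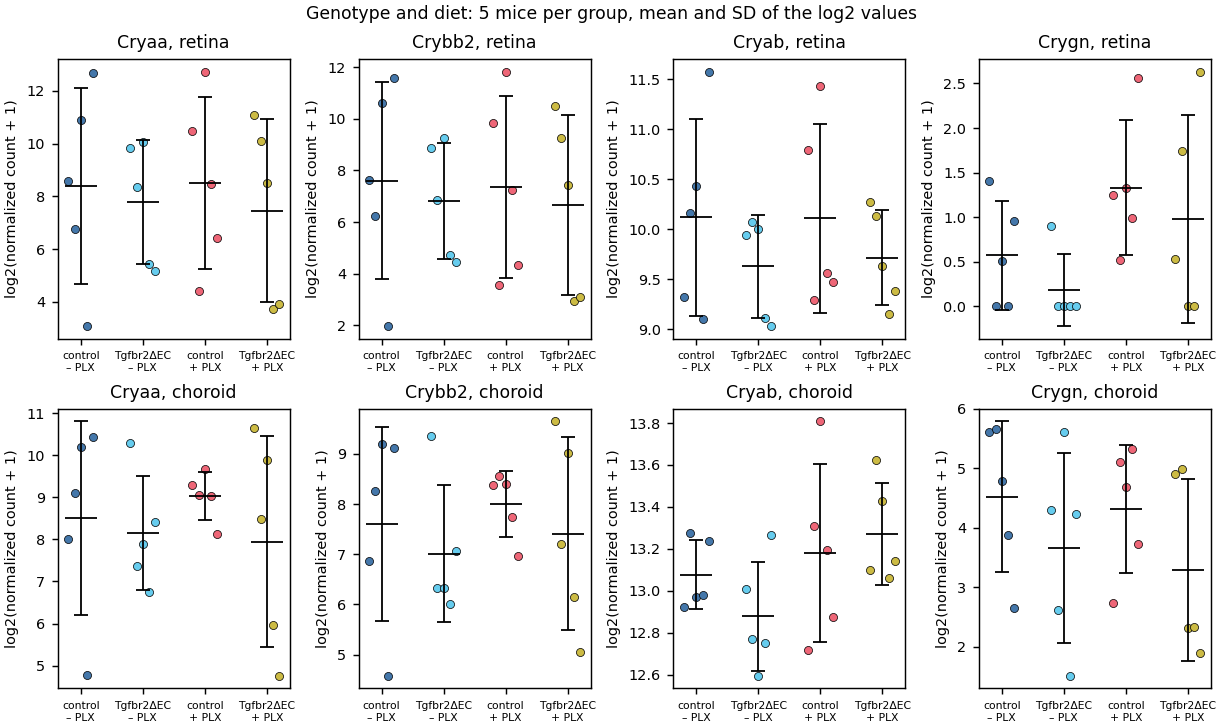
Log2(normalized count + 1) of Cryaa, Crybb2, Cryab and Crygn by genotype and diet in retina (top) and choroid (bottom), 1 point per mouse, with the mean and SD of 5 mice; each panel has its own y axis, which does not start at 0. The groups overlap in all 8 panels.

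The width of these comparisons follows from the spread between mice. For Cryaa in the retina, Tgfbr2ΔEC differed from control by -0.62 (log2) without PLX with a 95% interval from -4.37 to 3.13, and by -1.04 with PLX, from -4.79 to 2.71, so differences of many fold in either direction were not detectable. For Cryab in the choroid, where mice were alike, the interval was -0.55 to 0.15 without PLX and -0.26 to 0.44 with PLX. Of the spread of Cryaa between retinas, 2.16% lay between the 4 groups, against a median of 11.6% for all genes tested, and for Crygs 0.694%. Others lay above the median gene, as Crygn with 27.3% and Crybb3 with 16.3% in retina and, where the median was 18%, Crybb3 with 25.9% and Cryab with 24.3% in choroid. An exact two-sided permutation test of 5 against 5 mice, whose smallest p is 0.00794, gave 0 of 40 member comparisons with p at or under 0.05 in each tissue, and the lowest exact p was 0.0556 in choroid and 0.127 in retina. No 2 groups compared were free of overlap for any member. Neither count was taken over all genes, so they are not read as a result about the members.

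Other genes with a crystallin name, some of which encode enzymes or binding proteins, were called in 0 of 14 cases in each of the 10 comparisons within a tissue. Crym, a thyroid hormone binding protein with a crystallin name, ran from 990.3 to 4331 normalized counts in the retina, not corrected for length. Small heat shock proteins other than the α-crystallins were called in 0 of 6 tested cases in the same 10 comparisons. Of the stress and gliosis list, 1 of 10 genes was called, Lcn2, lower with PLX in control retina, and of the heat shock list 1 of 11, Hmox1, lower with PLX in both choroid comparisons. Of 10 lens transcription factors, Maf was called lower with PLX in both choroid comparisons, and Pax6 and Prox1, which retinal neurons also express, in Tgfbr2ΔEC choroid. In that same comparison Rom1 and Cngb1 of the 10 neural retina genes were called lower (list median -2.14, log2), as was Kcnj10 of the Müller glia list, while Prx of the Schwann cell list was called higher. The part of retinal RNA in the choroid pieces was not tested. Tie1 of the endothelium list was called higher with PLX in control choroid. The listed lens genes were called in 0 cases in those 10 comparisons.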

How the data were processed

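The deposited table held 1 value per gene and library for 54307 genes, as a signal of normalized counts that the authors had made by quantifying single-end stranded polyA libraries with Salmon 1.10.1 (GRCm39), summarising them per gene and dividing them by DESeq2 1.36.0 size factors; FastQC 0.11.5 is also named in the submitters' processing notes. Whether strand was used in counting is not given in the sources used here. Whole reads could not be recovered, since 50.2 to 77.9% of the low values of a library came within 0.1 of a whole number, so no count model was used. Levels per kilobase used the canonical transcripts of GENCODE release M39, which 607 gene IDs did not match.

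Values were tested as log2(normalized count + 1) with limma 3.58.1 (R 4.3.3, trend) over genes with a mean of at least 1 in the tissue, with the 4 groups in 1 fit, Benjamini-Hochberg adjustment over all genes tested and a threshold of 0.05. Fold changes on this scale understate those of low genes. Single members were also compared by exact two-sided permutation tests. Correlations were computed after group means had been removed, with 100000 two-sided permutations of mice within groups (Python 3.11.15, scipy 1.17.1), and each family was adjusted on its own. On simulated data, 85.5% of 200 genes changed by 2 on the log2 scale were called in choroid and 90.5% in retina, for Tgfbr2ΔEC against control without PLX. The changed genes were drawn at random from genes with a mean of at least 10, each with its own spread. This recovery does not apply to members that vary far more, as Cryaa with an SD of 3.24 (log2) in retina against a median of 0.42.

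All 10 members were named. From each list the rule allowed the 3 genes with the highest mean and any that were called; those called within a tissue are named, only some of the others are, and 1 gene is not reported here. The nearest patterns were the leading 10 for the members and 5 each for Cryaa and Cryab. Other list genes named were chosen after their values were seen. The members and lists were chosen with earlier results of these data known. Mouse numbers come from the library names and tie retina to choroid. The sign of a score of sex-specific genes matched between both tissues in 20 of 20 mice. The median same-mouse correlation of deviations over 15166 genes was 0.13, from -0.22 to 0.29, against -0.007 between different mice. Retina and choroid correlated best under the same number in 12 of the 20 mice, so the pairing is not checked for each mouse. Libraries are separate mice of mixed sex; sex is not in the labels, and a sex score served only as an alternative. Alternatives were other pseudocounts, filters, scalings, covariates and samples; the skeletal muscle score as a covariate was added after seeing the data.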

Additional observations from a re-analysis of the deposited data

Results flagged for a closer look

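In 15 of the 80 sets of 5 mice (10 genes, 4 groups and 2 tissues), the highest mouse was far from the others, by a gap to the next mouse that exceeded 0.71 of the group's whole range on the unlogged scale. Chance gives about 1 in 20, or 4, for independent values without skew, which these are not, since the genes co-vary in the same mice and all 15 gaps were on the high side, so the number is not read against it. On the log2 scale 2 sets were past the same limit, of which 1, Crygn in Tgfbr2ΔEC – PLX retina, was among the 15. In the retina of control + PLX, mouse 13 was the far one for Cryaa, where the gap was 0.791 of the range (6745 against 1425 in the next mouse, and 0.27 on the log2 scale), for Cryba1 (0.812), Cryba2 (0.75), Cryba4 (0.725), Crybb2 (0.747), Crybb3 (0.732) and Crygs (0.776). As these genes move together, the 7 gaps are not separate observations. In the choroid of Tgfbr2ΔEC – PLX, mouse 6 was the far one for Cryaa (0.796, with 1251 against 339.6 normalized counts), Cryba1 (0.736), Cryba2 (0.791), Crybb1 (0.883) and Crybb2 (0.883). The retina of mouse 16, in Tgfbr2ΔEC + PLX, stood apart for Crybb3 (0.728). For Crygn the gaps lay at the counting limit, 1.0 in Tgfbr2ΔEC – PLX retina, where mouse 6 had 0.87 and the other 4 mice 0, and 0.758 in control + PLX retina, where mouse 15 had 4.91.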

How the results depend on the processing

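Of 456 counts of members called or of relations of members, recomputed under other settings, 453 stayed within 1.5 times. The other 3 were the relations of members to scores in the retina, 27 in all, which ran from 16 (without mouse 4) to 37 (without mouse 16) as each mouse was left out, with 17 without mouse 10 and 17 without mouse 12; the cause was not tested. The 3158 differences of members within a tissue gave 0 calls, and 314 of these uncalled values changed sign; the smallest adjusted p (limma) was 0.134, for Cryab in Tgfbr2ΔEC choroid, PLX against no PLX, without mouse 10. With the mouse number as a replicate block, 3 members were called between retina and choroid in place of 2; the block changed no other call of a member. Crygn differed between tissues by -3.73 with a pseudocount of 0.5 and by -1.82 with 5. Same-mouse relations ran from 5 (without mouse 4) to 8, and choroid pairs from 24 (without mouse 4) to 31 (without mouse 16).

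Over all genes, 303 were called for genotype in choroid without PLX when only these 10 libraries were fitted, and 411 without mouse 15, in place of 1, and 0 with a minimum mean of 10. For PLX in Tgfbr2ΔEC choroid there were 529 calls in place of 958 once the score of neural retina genes entered the model, for PLX in control choroid 572 in place of 885 with only these 10 libraries, and for PLX in control retina 104 in place of 171 with a minimum mean of 10. Depth limits Crygn in retina, where most values are at or under 3 reads.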

Other observations

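The clustered γ-crystallins, which were outside the 10 genes, were also present. Crygb ran in the retina from 0 to 340.05 normalized counts and in the choroid from 0.983 to 105, Crygc from 0 to 328 and from 0 to 151, and Crygd from 0 to 183 and from 0 to 89.4. The highest choroid was that of mouse 16 for Crygb, Crygc and Crygd, as it was for Cryaa. Their reads are partly shared within the cluster.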
